A study of Rattus norvegicus with 6 samples.

Results

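Receptors for neurotransmitters other than serotonin formed a set of 52 genes among the 29479 gene identifiers counted in rat lateral ventricular choroid plexus. The members were all genes whose name, in the authors' deposited table of genes called different between the ages, begins with a symbol of the glutamate, GABA, glycine, acetylcholine, purine, adrenergic, dopamine, histamine or opioid receptor families. Of these, 51 encode receptor subunits or receptors in 16 families. The remaining gene, *Adrbk1*, encodes a kinase that phosphorylates activated G protein-coupled receptors, and entered through its name. No dopamine or histamine receptor gene was among the members. Because every member had been called by the authors on these same pools, the difference between the ages is a property by which the set was chosen. It is therefore described below without p-values for members, and genes of these families outside that table were not analysed here by name.

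Choroid plexus was collected from the lateral ventricles of Sprague-Dawley rats at embryonic day 15 (E15) and at 6 weeks of age (adult). Each age was represented by 3 pools of 10 animals, and 1 RNA-Seq library was made from each pool. The labels name no genetic modification and no treatment at either age. The plexus was taken whole, so epithelium, stroma, vessels and blood cells contributed to each pool. In such samples fewer cells of a type and less RNA per cell cannot be told apart. Values below are raw read counts, or counts normalized by TMM (trimmed mean of M values), a scaling set by most of the genes in a library. Counts were not corrected for gene length, so levels of different genes are not compared. Log2 fold changes are positive for higher expression at E15 and come from edgeR fitted to the 16643 genes with more than 10 counts in all. A gene was called when its Benjamini-Hochberg adjusted p-value was under 0.05.

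Neurotransmitter receptors are ion channels or receptors coupled to G proteins. Ligand-gated ion channels are assembled from several subunits and open within the membrane when transmitter binds. Receptors coupled to G proteins act more slowly, through adenylate cyclase, phospholipase C or ion channels. Receptors of the Gs class raise cyclic AMP, those of the Gi class lower it, and those of the Gq class release calcium from stores. The choroid plexus receives sympathetic and other nerve fibres, and its epithelium, which secretes cerebrospinal fluid (CSF), is exposed to transmitters and nucleotides present in that fluid. Adrenergic, cholinergic and purinergic agents are known to alter CSF secretion.

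Library totals lay between 17875089 and 19204440 counts. Markers of cell types could be named only where the authors had called the gene different between the ages, so markers they had not called are missing. Counts of markers higher at an age are thus descriptions, beside 34.7% of all genes tested called higher at E15 and 29.3% in the adult. The labelled tissue was checked with 10 epithelial markers, of which 8 could be named. All 8 had counts in every pool, and their summed normalized counts were 474738 to 568043 at E15 and 4135815 to 5067540 in the adult. *Ttr* made up most of these sums (389733 to 480713 at E15 and 3639487 to 4584734 in the adult). All 8 were called higher in the adult, from 2.76-fold (*Aqp1*) to 45.1-fold (*Kl*). Markers of other cell types were present too and moved between pools of an age. Of 14 markers of developing neurons, 11 could be named and 10 were higher at E15, with summed normalized counts of 5874, 1853 and 4285 in E15 pools 1, 2 and 3 and 176, 840 and 210 in adult pools 1, 2 and 3. *Nhlh1* and *Neurod6* among them were at 0 counts in all adult pools. Of 10 markers of adult neurons, 6 could be named, and their sum was 611 to 701 at E15 and 729, 1532 and 566 in adult pools 1, 2 and 3. *Nrgn*, which was called higher at E15, had a mean of 402 in the E15 pools against 40.6 in the adult pools. The other 5, *Snap25*, *Syt1*, *Syp*, *Nefh* and *Gad1*, were called higher in the adult, so these sums hide the direction of most of the list. With adult pool 2 left out, 2 markers of this list were called higher in the adult. Of 7 astrocyte markers, 5 could be named, with sums of 8807 to 11371 at E15 against 3472, 7646 and 3008 in the adult pools. *Gja1* and *Slc1a3* made up most of the E15 sums (means of 6331 and 3464) and were called higher at E15. The other 3, *Gfap*, *Aqp4* and *S100b*, were called higher in the adult, so the sums do not give the direction of the list. By these sums, adult pool 2 was the highest adult pool for all 3 of these lists. The 8 named of 9 oligodendrocyte markers were highest in adult pool 1 (7322, compared with 3024 and 1799 in adult pools 2 and 3). All 7 endothelial, all 7 erythroid and all 9 neural progenitor markers that could be named, and 6 of the 8 for mesenchyme and mural cells, were higher at E15. Erythroid sums were 233381 to 331959 at E15 and 6187 to 8810 in the adult. Of 3 named ependymal markers 2 were higher at E15 and 1 in the adult, and of 6 named macrophage markers 2 and 3.

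Annotated starts of 38 of the 52 genes were matched by symbol in RefSeq (rat assembly GRCr8). The 250 bases before the start are printed for 5 of these genes as examples whose ages did not overlap, chosen after their values were seen, 3 enriched at E15 (*Grm8*, *P2ry1*, *Adra2b*) and 2 enriched in the adult (*Gabrr2*, *P2rx6*). They are written 5′ to 3′ on the strand of the gene, and capitals mark matches on either strand to GGGCGG (the GC box, bound by Sp family factors), TAATCC (the core bound by OTX-type homeodomain proteins) and TATAAA. *Grm8* lies on the minus strand (chr4:57687507-57687756), *P2ry1* on the plus strand (chr2:147391411-147391660), *Adra2b* on the plus strand (chr3:135038231-135038480), *Gabrr2* on the plus strand (chr5:52248228-52248477) and *P2rx6* on the minus strand (chr11:96954204-96954453).
Grm8: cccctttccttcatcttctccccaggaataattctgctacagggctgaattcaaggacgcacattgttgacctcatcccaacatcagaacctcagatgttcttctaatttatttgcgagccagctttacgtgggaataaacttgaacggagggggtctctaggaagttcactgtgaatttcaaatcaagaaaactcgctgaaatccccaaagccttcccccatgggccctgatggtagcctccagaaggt
P2ry1: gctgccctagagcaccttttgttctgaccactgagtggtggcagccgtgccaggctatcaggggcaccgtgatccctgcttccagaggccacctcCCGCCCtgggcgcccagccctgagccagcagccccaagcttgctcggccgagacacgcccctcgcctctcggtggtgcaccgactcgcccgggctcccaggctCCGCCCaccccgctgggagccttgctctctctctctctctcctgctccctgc
Adra2b: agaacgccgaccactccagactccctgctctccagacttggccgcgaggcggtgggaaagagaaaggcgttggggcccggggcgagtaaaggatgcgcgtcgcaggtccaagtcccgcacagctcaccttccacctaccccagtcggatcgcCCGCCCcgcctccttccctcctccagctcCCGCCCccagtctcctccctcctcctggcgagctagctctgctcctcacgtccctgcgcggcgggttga
Gabrr2: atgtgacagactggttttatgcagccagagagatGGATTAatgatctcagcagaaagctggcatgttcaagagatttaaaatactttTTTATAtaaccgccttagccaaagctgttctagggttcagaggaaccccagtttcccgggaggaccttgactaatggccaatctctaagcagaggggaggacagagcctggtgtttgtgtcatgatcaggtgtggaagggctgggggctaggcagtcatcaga
P2rx6: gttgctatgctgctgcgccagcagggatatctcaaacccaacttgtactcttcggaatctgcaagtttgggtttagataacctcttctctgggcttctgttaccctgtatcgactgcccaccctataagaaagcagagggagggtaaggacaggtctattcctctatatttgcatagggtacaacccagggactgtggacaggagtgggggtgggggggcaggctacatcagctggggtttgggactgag

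The GC box was found in 22 of the 38 stretches, compared with 30.5% of all 33469 stretches of this length in the RefSeq table. TAATCC was found upstream of *Gabrr2*, *Gabrr3* and *Chrm4* (3 of 38, compared with 6.34% of all), and TATAAA upstream of *Gabrr2*, *Chrnb1* and *Gabra3* (3 of 38, compared with 12.9%). In *Gabrr2* both matches were on the strand opposite to the gene. TGACGTCA, the palindromic cyclic AMP response element, was found in 0 of 38 (1.59% of all), and the left and right parts of the REST element, TTCAGCACC and GGACAGCGC, were each found in 0 of 38 (0.305% and 0.338% of all). The median GC content was 61.6% over the 38 stretches and 51.2% over all. It was 62% for the 19 matched genes called at E15 and 56.8% for the 8 called in the adult, with ranges of 43.2% to 81.6% and 36.4% to 80.4%. These matches describe the letters only, and no binding was measured.

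Of the 52 genes, 31 were called higher at E15 and 9 higher in the adult, with 12 not called. Over all genes tested, 64.0% were called, 34.7% higher at E15 and 29.3% higher in the adult, and since the set was drawn from genes the authors had called, nothing is read from its larger share. Normalized counts of the ages did not overlap for 45 members, 35 higher at E15 and 10 higher in the adult, compared with 70.1%, 38.0% and 32.1% of all genes tested. The median log2 fold change was 2.07 over the 52 genes, or 2.02 with genes at 0 counts at an age set to their lower bound, and 0.14 over all genes tested. Among called genes, 77.5% of members and 54.2% of all genes were higher at E15. Scaling by total counts alone moved the median of all genes tested to 0.95 and that of the members to 2.87, and left 3 members called in the adult (*Grin1*, *Gabrd* and *Gabrr2*) and 38 at E15. No member changed direction under any scaling, test or filter used.

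**Figure D1:**
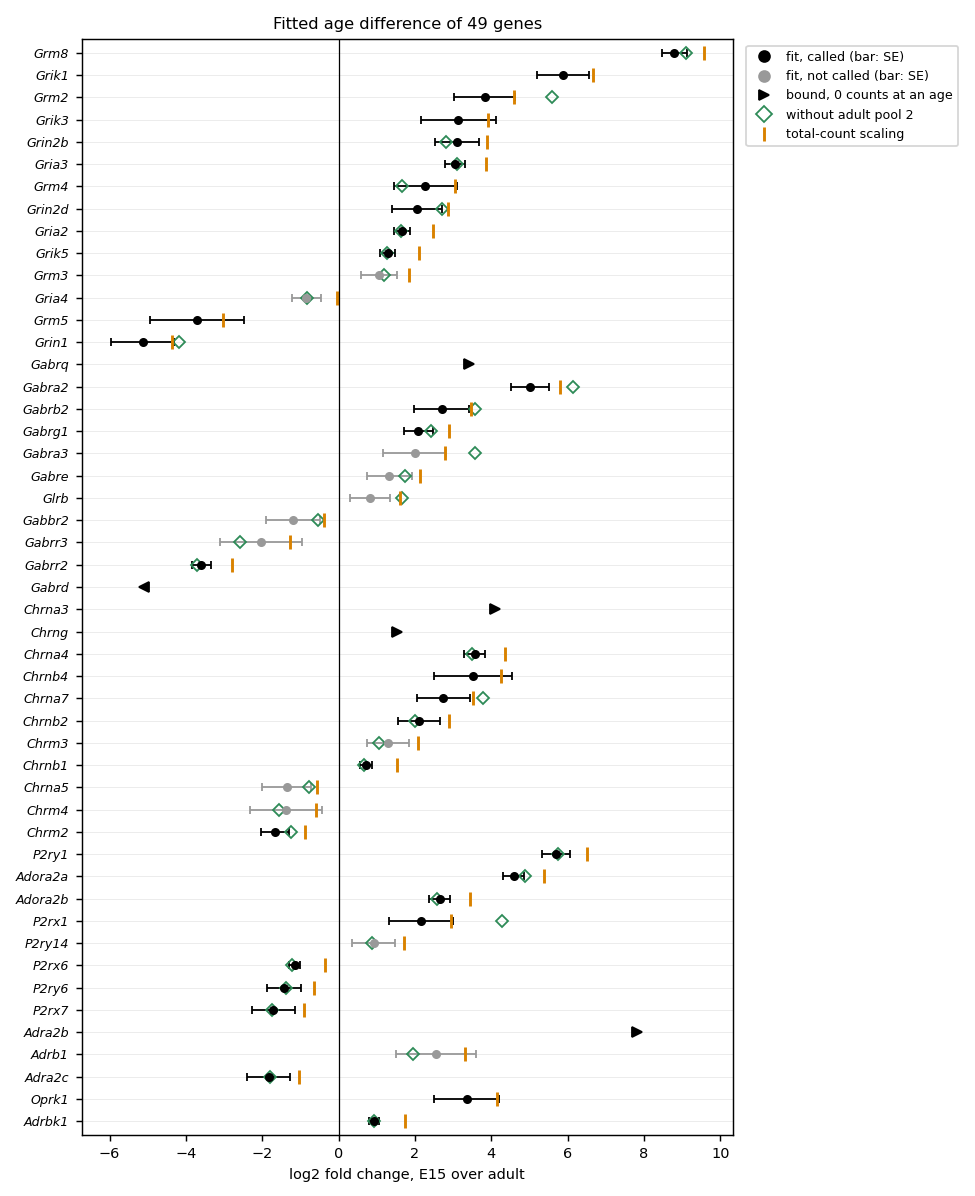
Log2 fold change (E15 over adult, horizontal axis) of 49 of the 52 genes, grouped by transmitter; points with bars are fitted values ± standard error, black where called and grey where not, and triangles are lower bounds for genes with 0 counts at an age. Open diamonds leave out adult pool 2 and orange ticks use total-count scaling; ticks lie to the right of the points by about the same distance for all fitted genes, no diamond is drawn for genes at 0 adult counts without that pool, and those drawn part furthest from the points for *P2rx1*, *Grm2* and *Gabra3*.

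Glutamate receptors were the most numerous, with 15 members, of which 11 were called higher at E15, 2 in the adult, and 2 not at all. Summed over the 15 genes, normalized counts were 4919 to 5765 in the E15 pools and 1327 to 1518 in the adult pools. AMPA, kainate and NMDA subunits form channels at excitatory synapses, and metabotropic receptors act through G proteins.

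Among AMPA subunits, *Gria2* (ENSRNOG00000028589) had the most reads in this family. Its product, once its message is edited, keeps AMPA channels impermeable to calcium. Raw counts were 3499, 2040 and 2202 in E15 pools 1, 2 and 3 and 462, 493 and 471 in the adult pools. Every E15 pool was above every adult pool, with pool 1 the highest. Normalized counts were 2054 ± 706 at E15 (mean ± SD over 3 pools, as for all such values) and 647 ± 6.995 in the adult, a 3.17-fold enrichment at E15 (log2 fold change 1.67, standard error or SE 0.21). *Gria3* was enriched 8.26-fold at E15 (196 ± 4.76 against 23.6 ± 6.27 normalized counts). *Gria4* stood apart in direction, with 122, 52 and 56 raw counts at E15 against 61, 89 and 93 in the adult. In raw counts E15 pool 1 was above all adult pools, and after normalization it lay within their range (99.9, compared with 86.4 to 128). The gene was not called (log2 fold change -0.84, SE 0.38), but was called in the adult without E15 pool 1 (log2 fold change -1.39).

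*Grik1* and *Grik5* encode kainate receptor subunits, of which that of *Grik5* forms channels only together with another kainate subunit. *Grik5* had 1009, 1851 and 1791 raw counts at E15 against 345, 399 and 358 in the adult, 1219 ± 340 against 499 ± 16.3 after normalization, or 2.44-fold higher at E15. *Grik1* had 722, 692 and 711 raw counts at E15 against 0, 21 and 0 in the adult, so that adult pool 2 held all of its adult counts. The fitted enrichment of *Grik1* at E15 was 58.6-fold with all pools. Without adult pool 2, which left 0 adult counts, the bound from counts was at least 268-fold. Its fitted log2 fold change was 5.87 with all pools and 5.28 without adult pool 3. *Grik3*, with 14, 49 and 31 raw counts at E15 against 0, 6 and 0 in the adult, was likewise found in adult pool 2 only, and was enriched 8.76-fold, or at least 11.8-fold without that pool. Its call was lost without E15 pool 2, adult pool 1 or adult pool 3 (log2 fold changes 2.68, 2.56 and 2.55, compared with 3.13). A kainate receptor gene that the authors listed under its protein name, GRIK2_RAT, fell outside the naming rule and had 323, 136 and 122 raw counts at E15 against 38, 48 and 32 in the adult, with a fitted ratio of 2.89 in favour of E15.

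NMDA receptors need the subunit encoded by *Grin1* together with a subunit that binds glutamate, such as those of *Grin2b* and *Grin2d*. These genes moved in opposite directions. *Grin1* (ENSRNOG00000011726) had 1, 2 and 3 raw counts at E15 against 29, 91 and 14 in the adult. All adult pools were above all E15 pools, and adult pool 2 was the highest. The enrichment in the adult was 35.1-fold (log2 fold change -5.13, SE 0.83), and without adult pool 2 the log2 fold change was -4.19. *Grin2b* was enriched 8.58-fold at E15 (36.2 ± 4.82 against 4.16 ± 3.81 normalized counts), and its ratio was 18.0 (exact 95% interval 6.04 to 88.5) without adult pool 1. *Grin2d* had 24, 66 and 55 raw counts at E15 against 7, 12 and 1 in the adult, a 4.16-fold enrichment at E15 that was not called without E15 pool 2, E15 pool 3 or adult pool 1 (log2 fold changes 1.79, 1.95 and 2.10, compared with 2.06) and was larger, 2.70, without adult pool 2.

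The metabotropic receptors differ in the G protein they use. *Grm8* (ENSRNOG00000021468), which encodes a receptor of the Gi class that lowers cyclic AMP, had the largest fitted change among genes with counts at both ages. Raw counts were 1140, 1094 and 1018 at E15 against 2, 2 and 0 in the adult. The E15 pools were nearly equal and far above the adult pools, which were near the lower limit of counting. Normalized counts were 858 ± 68.7 at E15 and 1.81 ± 1.57 in the adult, a 442-fold enrichment at E15 (log2 fold change 8.79, SE 0.33). *Grm2* and *Grm3* encode a pair of related Gi-coupled receptors. *Grm2* was enriched 14.2-fold at E15, or with a ratio of 57.1 (exact 95% interval 10.1 to 2269) without adult pool 2, which held 83.3% of its adult counts. *Grm3* had 50, 46 and 47 raw counts at E15 against 18, 17 and 5 in the adult, and was not called at a fitted ratio of 2.07, although the ages did not overlap. *Grm4* had 19, 22 and 11 raw counts at E15 against 2, 0 and 4 in the adult, and its 4.83-fold enrichment at E15 kept its call only when adult pool 3 was the library left out (log2 fold change 3.20, and 1.65 to 2.51 without any of the others). *Grm5*, of the Gq class, was at the limit of detection, with 0, 1 and 0 raw counts at E15 against 1, 4 and 6 in the adult. The ratio was 18.9 in favour of the adult (exact 95% interval 2.75 to 815), at least 4.15-fold without E15 pool 2. Its call was lost without E15 pool 3 (ratio 12.6, exact 95% interval 1.83 to 541), and without adult pool 2 or 3 it had too few counts to be tested.

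**Figure D2:**
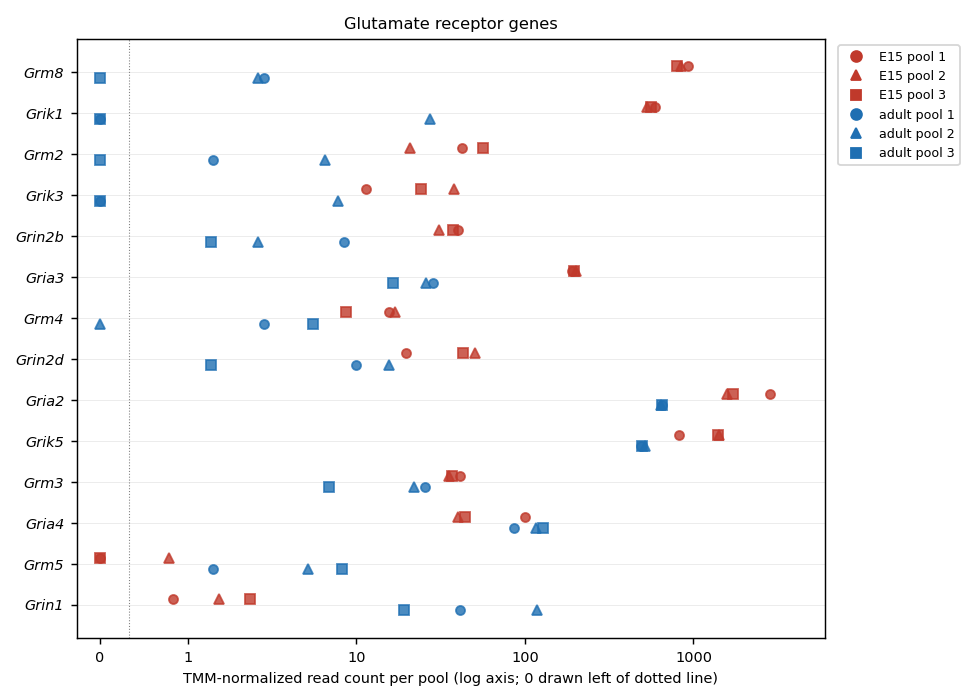
TMM-normalized read counts per pool (horizontal log axis, with 0 drawn left of the dotted line) of 14 glutamate receptor genes, with E15 pools in red and adult pools in blue and a symbol for each pool number. The 3 E15 points of *Grm8* and *Grik1* lie together far to the right of their adult points, *Grin1* shows the opposite order, and the triangle of adult pool 2 is the rightmost adult point of *Grik1*, *Grik3* and *Grm2*.

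Receptors for the inhibitory transmitters GABA and glycine had 12 members, 5 called higher at E15 and 2 in the adult. GABA-A receptors are chloride channels built of several subunits, usually of the alpha, beta and gamma kinds, and other kinds of subunit give channels with different kinetics and locations. The genes called at E15 were of the alpha, beta, gamma and theta kinds, and those called in the adult were of the delta and rho kinds.

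The alpha subunit gene *Gabra2* (ENSRNOG00000002349) had 654, 426 and 469 raw counts at E15 against 6, 20 and 2 in the adult. The lowest E15 pool was far above the highest adult pool. Normalized counts were 410 ± 110 and 12.4 ± 12.1, a 32.2-fold enrichment at E15, and without adult pool 2 the ratio was 73.2. *Gabrg1*, a gamma subunit gene that follows *Gabra2* in the order of genes on the chromosome, was enriched 4.25-fold at E15 (142 ± 54.3 against 33.3 ± 13.8 normalized counts). *Gabrb2* was enriched 6.48-fold at E15, or with a ratio of 12.8 (exact 95% interval 4.27 to 63.3) without adult pool 2.

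*Gabra3*, *Gabrq* and *Gabre* encode alpha, theta and epsilon subunits, and in the RefSeq gene order they lie on the X chromosome with at most 1 gene between neighbours. All 3 were higher at E15 by their means. *Gabrq* had 17, 24 and 14 raw counts at E15 against 0 in each adult pool, an enrichment at E15 of at least 10.6-fold against a floor of 3 counts over the adult pools (at least 6.93-fold without adult pool 2). *Gabra3* had 22, 16 and 31 raw counts at E15 against 2, 8 and 0 in the adult and was not called, with a fitted ratio of 3.97 (log2 fold change 1.99, or 1.40 without adult pool 3). Without adult pool 2, where 80.0% of its adult counts lay, the gene passed the threshold at E15, with a ratio of 13.0 (exact 95% interval 3.48 to 110). *Gabre* had 32, 68 and 47 raw counts at E15 against 2, 18 and 14 in the adult and was not called either, with a fitted ratio of 2.51. With single libraries left out, it was called only without E15 pool 1 (log2 fold change 1.53, compared with 1.33). Neither gene overlapped between the ages.

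The rho subunits form GABA channels known mainly from the retina. *Gabrr2* (ENSRNOG00000007490), whose upstream sequence is printed above, had 27, 28 and 41 raw counts at E15 against 252, 213 and 210 in the adult. The pools of each age lay close together and did not overlap those of the other age. Normalized counts were 25.3 ± 5.97 at E15 and 307 ± 43.3 in the adult, a 12.1-fold enrichment in the adult (log2 fold change -3.60, SE 0.25), and the log2 fold change stayed between -3.81 and -3.49 with any single library left out. *Gabrr3* had 0, 3 and 3 raw counts at E15 against 4, 1 and 10 in the adult, with overlapping pools, and was not called (fitted ratio 4.12 in favour of the adult). Its log2 fold change was -2.04, or -1.09 without adult pool 3. *Gabrd* (ENSRNOG00000016385), which encodes the delta subunit of GABA-A receptors that lie outside synapses, had 0 counts in every E15 pool and 41, 13 and 6 in the adult. The enrichment in the adult was at least 34.4-fold, and at least 16.0-fold without adult pool 1, which held most of the counts.

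*Gabbr2* encodes a subunit of the G protein-coupled GABA-B receptor. It had 5, 27 and 30 raw counts at E15 against 24, 50 and 9 in the adult, with overlapping pools, and was not called (log2 fold change -1.19, SE 0.70, or -0.55 without adult pool 2). *Glrb* encodes the glycine receptor subunit that anchors the receptor to the scaffold protein gephyrin. It had 68, 58 and 63 raw counts at E15 against 6, 41 and 16 in the adult. Adult pool 2 overlapped the E15 pools, and the gene was not called (log2 fold change 0.82, SE 0.53). Without adult pool 2 it was called at E15 (log2 fold change 1.66). *Glrb* follows *Gria2* in the gene order.

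Acetylcholine receptors had 11 members. Of the 8 nicotinic subunit genes, whose products form cation channels, 7 were called higher at E15 and the other gene, *Chrna5*, was not called. Of the 3 muscarinic receptor genes, 1 was called, and it was higher in the adult.

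*Chrna4* (ENSRNOG00000011202) and *Chrnb2* encode the subunits of the main nicotinic receptor of high affinity in brain. *Chrna4* had 337, 580 and 601 raw counts at E15 against 22, 25 and 27 in the adult. E15 pool 1 was the lowest E15 pool and was still far above the adult. Normalized counts were 398 ± 106 and 33.6 ± 3.12, an 11.8-fold enrichment at E15 (log2 fold change 3.56, SE 0.27). *Chrnb2* was enriched 4.28-fold at E15 (31.4 ± 8.45 against 7.23 ± 4.81 normalized counts). *Chrna7*, whose product forms channels on its own that admit calcium, was enriched 6.69-fold at E15, or with a ratio of 14.6 (exact 95% interval 4.88 to 71.9) without adult pool 2.

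*Chrna5*, *Chrna3* and *Chrnb4* follow each other on chromosome 8 in the RefSeq gene order, and the products of the latter pair form the nicotinic receptor of autonomic ganglia. *Chrna3* had 45, 24 and 20 raw counts at E15 against 0 in each adult pool, an enrichment of at least 17.2-fold at E15 (at least 11.2-fold without adult pool 2). *Chrnb4* was detected at E15 in all pools and in the adult in pool 2 only, with 2 counts, and had a ratio of 12.8 (exact 95% interval 3.33 to 109), and a bound of at least 5.54-fold without adult pool 2. *Chrna5* differed from its neighbours, with 5, 6 and 8 raw counts at E15 against 7, 17 and 5 in the adult. After normalization its pools did not overlap, and it was not called (log2 fold change -1.36, SE 0.64). With single libraries left out, it was called only without adult pool 3, in the adult (-1.69). Without adult pool 2 the value was -0.77. Of the 6 pairs of members with at most 1 gene between them, 5 had their higher mean at the same age, and *Chrna5* with *Chrna3* was the pair that did not.

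*Chrnb1* and *Chrng* encode subunits of the receptor of skeletal muscle, the latter before birth. *Chrnb1* was the nicotinic gene with the smallest called difference, 1.65-fold higher at E15 with 293 ± 26.1 and 178 ± 5.37 normalized counts. *Chrng* had 3, 9 and 3 raw counts at E15 against 0 in each adult pool, at least 2.90-fold higher at E15. It was not called without any of the adult pools (at least 1.89- to 1.97-fold), and it could not be tested without E15 pool 2 (at least 1.77-fold).

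*Chrm2* (ENSRNOG00000011928), which encodes a muscarinic receptor of the Gi class, had 111, 97 and 130 raw counts at E15 against 98, 336 and 199 in the adult. Raw counts of adult pool 1 lay within the range of E15, and after normalization all adult pools were above it. Normalized counts were 89.2 ± 13.7 at E15 and 283 ± 149 in the adult, a 3.17-fold enrichment in the adult (log2 fold change -1.67, SE 0.37). Adult pool 2 was the highest, and without it the log2 fold change was -1.24. *Chrm3*, of the Gq class, had 22, 40 and 40 raw counts at E15 against 4, 6 and 14 in the adult and was not called (log2 fold change 1.29, SE 0.54). With single libraries left out, it was called at E15 only without E15 pool 1 or adult pool 3 (1.94 without the latter). *Chrm4*, of the Gi class, had 11, 2 and 1 raw counts at E15 against 3, 6 and 13 in the adult, with overlapping pools, and was not called (log2 fold change -1.39, SE 0.94, or -0.70 without adult pool 3). Without E15 pool 1, which held most of its E15 counts, it was called in the adult, with a ratio of 8.56 (exact 95% interval 2.57 to 44.7).

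**Figure D3:**
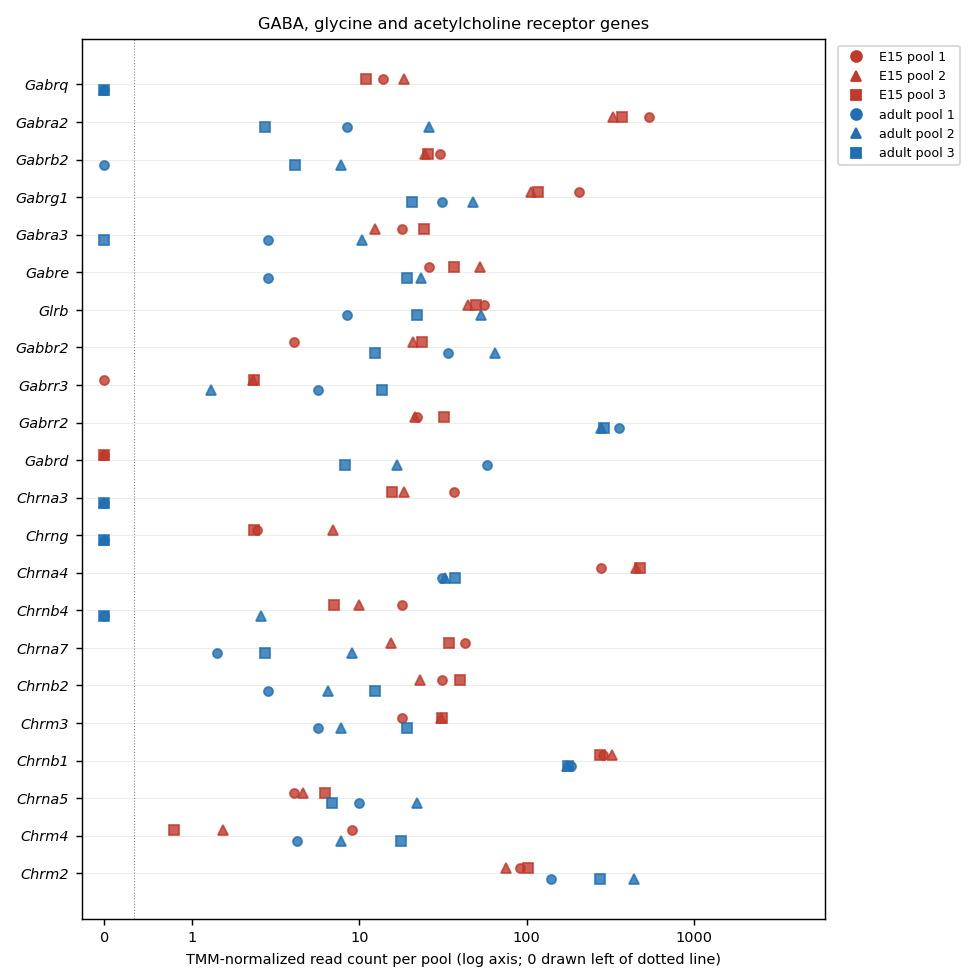
TMM-normalized read counts per pool (horizontal log axis, with 0 drawn left of the dotted line) of 11 GABA and glycine receptor genes and 11 acetylcholine receptor genes, with E15 pools in red and adult pools in blue and a symbol for each pool number. The E15 points of *Gabra2* and *Chrna4* lie to the right of their adult points, *Gabrr2* shows 2 tight groups in the opposite order, and *Gabrd* at E15 and *Gabrq*, *Chrna3* and *Chrng* in the adult are at 0.

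Receptors for nucleotides and adenosine had 8 members, 4 called higher at E15 and 3 in the adult. Their summed normalized counts were closer between the ages than those of the glutamate receptors, with 1867 to 1990 at E15 and 1349 to 1414.5 in the adult. The members behind these sums differed between the ages, since *P2ry1* and *Adora2a* were higher at E15 and *P2rx6* in the adult.

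*P2ry1* (ENSRNOG00000014232) encodes a Gq-coupled receptor for ADP. Raw counts were 1077, 1017 and 959 at E15 against 2, 13 and 19 in the adult. The E15 pools differed little among themselves and were far above the adult pools, the adult pools being low but unequal. Normalized counts were 806 ± 67.6 at E15 and 15.3 ± 11.7 in the adult, a 51.9-fold enrichment at E15 (log2 fold change 5.70, SE 0.38). *P2ry6*, whose product responds to UDP, had 9, 14 and 11 raw counts at E15 against 17, 21 and 16 in the adult, 2.71-fold higher in the adult, and was not called without E15 pool 3 (log2 fold change -1.42, compared with -1.44). *P2ry14*, whose product responds to UDP-glucose and similar sugars, had 32, 27 and 45 raw counts at E15 against 3, 11 and 18 in the adult and was not called (log2 fold change 0.92, SE 0.57, or 1.51 without adult pool 3).

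P2X receptors are cation channels opened by ATP. *P2rx6* (ENSRNOG00000001873) had the most reads in this family. Its subunit forms few working channels alone and joins other P2X subunits. Raw counts were 563, 834 and 754 at E15 against 928, 926 and 915 in the adult. The adult pools were nearly identical and lay above all E15 pools. Normalized counts were 565 ± 93.6 at E15 and 1258 ± 55.8 in the adult, a 2.23-fold enrichment in the adult (log2 fold change -1.15, SE 0.14). With total-count scaling its log2 fold change was -0.35 and it was not called. *P2rx7*, whose product needs high ATP and is known from macrophages, had 13, 6 and 9 raw counts at E15 against 25, 19 and 10 in the adult, 3.28-fold higher in the adult. That call was lost without E15 pool 2, E15 pool 3 or adult pool 1 (log2 fold changes -1.46, -1.68 and -1.39, compared with -1.71). *P2rx1* had 34, 49 and 85 raw counts at E15 against 3, 19 and 0 in the adult, and was 4.45-fold higher at E15. Adult pool 2 held 86.4% of its adult counts, and without that pool the ratio was 21.2 (exact 95% interval 7.12 to 104). Its call was lost without E15 pool 2, E15 pool 3, adult pool 1 or adult pool 3 (log2 fold changes 2.25, 1.73, 1.78 and 1.55, compared with 2.15).

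Adenosine receptors of the Gs class raise cyclic AMP. *Adora2a* (ENSRNOG00000001302) had 373, 475 and 442 raw counts at E15 against 8, 15 and 8 in the adult, with no overlap. Normalized counts were 339 ± 30.9 and 13.9 ± 4.81, a 24.0-fold enrichment at E15 (log2 fold change 4.58, SE 0.27). *Adora2b*, the related receptor of lower affinity, was enriched 6.25-fold at E15 (128 ± 17.5 against 20.4 ± 2.60 normalized counts).

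**Figure D4:**
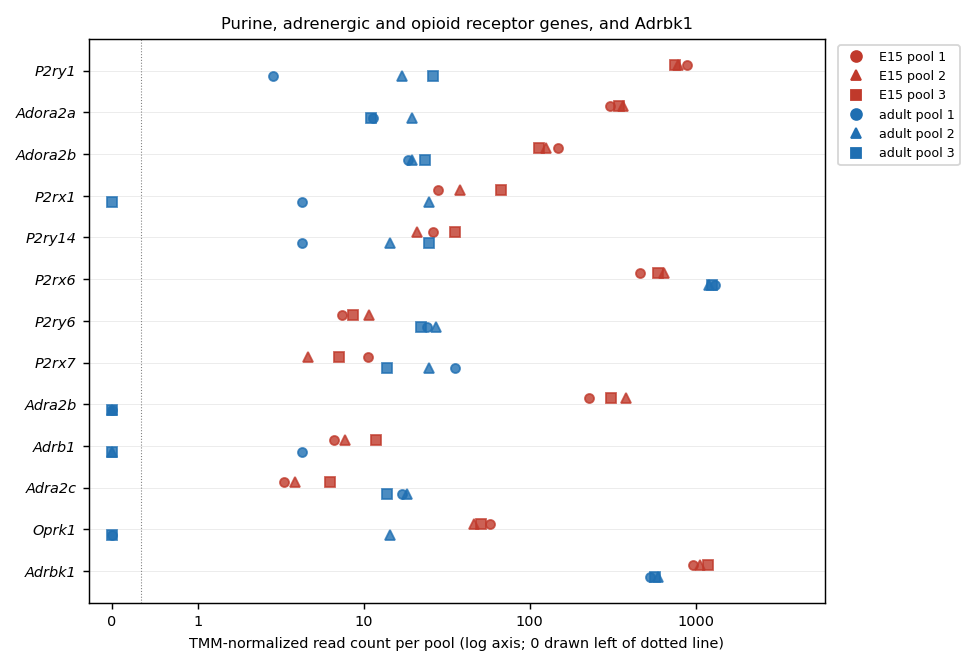
TMM-normalized read counts per pool (horizontal log axis, with 0 drawn left of the dotted line) of purine, adrenergic and opioid receptor genes and the receptor kinase gene *Adrbk1*, with E15 pools in red and adult pools in blue and a symbol for each pool number. E15 points of *P2ry1* and *Adora2a* lie far to the right of their adult points, *Adra2b* is at 0 in all adult pools, and *P2rx6* has its adult points to the right of E15 at a short distance.

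Adrenergic receptors had 4 members, and opioid receptors 1. *Adra2b* (ENSRNOG00000013887) encodes an alpha adrenergic receptor of the Gi class. It had 277, 492 and 396 raw counts at E15 against 0 in each adult pool. Enrichment at E15 reached at least 226-fold, and at least 147-fold without adult pool 2, since the same floor of 3 counts then stands for fewer pools. *Adra2c*, of the same class, went the other way, with 4, 5 and 8 raw counts at E15 against 12, 14 and 10 in the adult. It was 3.57-fold higher in the adult, and its call was lost without E15 pool 2 (log2 fold change -1.74, compared with -1.84). *Adrb1*, which encodes a beta adrenergic receptor of the Gs class, had 8, 10 and 15 raw counts at E15 against 3, 0 and 0 in the adult and was not called, with a ratio of 6.39 (exact 95% interval 2.004 to 32.6). It was called at E15 without E15 pool 1 (ratio 7.14, exact 95% interval 2.18 to 36.9) and without adult pool 1 (at least 4.34-fold), and without adult pool 2 the ratio was 4.16 (exact 95% interval 1.30 to 21.2).

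*Oprk1* encodes the kappa opioid receptor, which binds dynorphins. It had 70, 60 and 65 raw counts at E15 against 0, 11 and 0 in the adult, so that adult pool 2 again held all adult counts. The enrichment at E15 was 10.2-fold, at least 24.6-fold without adult pool 2, and its log2 fold change was 3.35 with all pools and 2.77 without adult pool 3. The kinase gene *Adrbk1* had 1176, 1382 and 1517 raw counts at E15 against 376, 458 and 414 in the adult. Normalized counts were 1072 ± 114 and 565 ± 31.3, 1.90-fold higher at E15 (log2 fold change 0.92, SE 0.12).

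Pools of an age were then compared for the members as a whole, by setting the normalized count of a gene in each pool against its mean in the other pools of that age (log2 ratio, pseudocount 0.5). Among the 48 members with adult counts, adult pool 2 was the highest adult pool for 26 (54.2%), compared with 33.9% of all genes tested. Most of these members had few adult counts. Among genes with a mean above 0 and under 50 normalized adult counts, adult pool 2 was the highest for 22 of 39 members (56.4%) and for 41.4% of all genes, and median deviations in adult pools 1, 2 and 3 were -0.72, 0.69 and -0.93 for the members and -0.21, 0.15 and -0.40 for all. For 21 members it held at least 50% of the adult counts, and for 4 of these, *Grik1*, *Grik3*, *Oprk1* and *Chrnb4*, it held all of them. Over all members, median deviations were -0.30, 0.23 and -0.41 in adult pools 1, 2 and 3. Those of the developing neuron markers were -1.66, 2.09 and -0.93, those of the adult neuron markers -0.31, 0.98 and -0.97, and those of the astrocyte markers -0.69, 1.39 and -0.83. In adult pool 2 the median deviation was 0.76 for ependymal, 0.45 for endothelial, 0.41 for erythroid and 0.35 for mesenchyme and mural cell markers. It was 0.03 for macrophage, -0.02 for neural progenitor, -0.03 for choroid plexus epithelium and -0.85 for oligodendrocyte markers. The part of these cell types in the adult counts of the members was not tested.

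Without adult pool 2, 31 members were called at E15 and 8 in the adult. Among the 27 genes called at E15 that had adult counts, 19 had a larger enrichment without that pool. Leaving out a gene's highest adult pool raises its ratio of E15 to adult, so this count restates the pool levels above. All 8 genes called in the adult that could be fitted without adult pool 2 kept their direction. At E15, the summed developing neuron markers of E15 pool 1 were 3.17 times those of E15 pool 2. Over the 51 members with counts in E15 pool 2, the same ratio had a median of 0.953, and it was below 1 for 26 of them and above 2 for 5 (*Chrm4*, *Chrna7*, *Gria4*, *P2rx7* and *Grm2*, at 2.05 to 5.85). For the 16 members with at least 100 normalized counts on average at E15, the ratio was between 0.579 and 1.94 with a median of 0.929, and it was below 1 for 9 of them and above 2 for 0 of them. The median coefficient of variation of these 16 genes among the E15 pools was 14.7%. The 9 named neural progenitor markers summed to 30166, 30959 and 30870 in E15 pools 1, 2 and 3, mostly from *Vim* (mean 25394). Their median deviations in these pools were 0.61, -0.63 and 0.06. The part of any cell type in the E15 counts of the members was not tested.

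**Figure D5:**
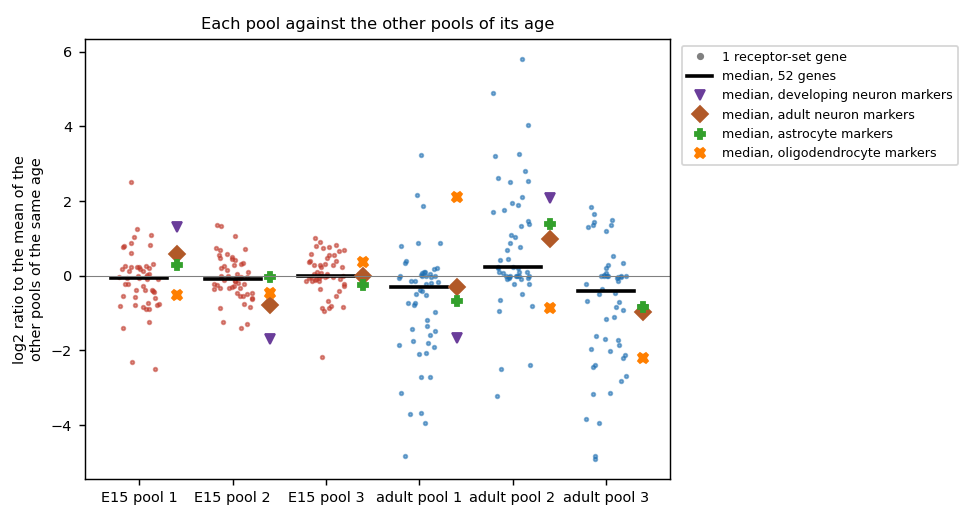
Deviation of each pool from the other pools of its age (log2 ratio of normalized counts, vertical axis) for the 6 pools, with a dot for each of the 52 genes, a black bar for their median and symbols for the medians of 4 lists of cell type markers. In adult pool 2 the neuron and astrocyte symbols and many dots lie above 0, and at E15 the bars stay near 0 while the developing neuron symbol moves from above 0 in pool 1 to below 0 in pool 2.

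Genes that make, carry or break down the transmitters, or that hold and couple the receptors, were taken from lists set by function. Of 134 such genes, 82 could be named, *Adrbk1* among them. Among these 82, edgeR's quasi-likelihood test, adjusted over all genes tested, called 42 higher at E15 and 33 in the adult. Of all genes tested, 34.7% were called higher at E15 and 29.3% in the adult. Like the receptors, the 82 genes carry a name here because the authors had called them. Nothing is therefore read from their shares, here or by list, and they are given without p-values. The median log2 fold change was 0.98 over the 82 genes and 0.14 over all genes tested. Scaling by total counts alone called 46 and 21 of the 82 genes, and 9799 and 2292 of all genes.

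The glutamate list had 19 named genes, 12 higher at E15 and 6 in the adult. The largest changes at E15 were those of *Cacng4* and *Cnih2*, whose products are auxiliary subunits of AMPA receptors. *Cacng4* had 314, 253 and 239 raw counts at E15 against 0, 11 and 0 in the adult, 42.0-fold higher at E15, or at least 102-fold without adult pool 2. *Cnih2* had 1132 ± 201 normalized counts at E15 compared with 29.9 ± 19.2 in the adult, 37.3-fold higher at E15, with a log2 fold change of 5.22 that was 5.86 without adult pool 2. In the adult, *Slc17a8*, which encodes a vesicular glutamate transporter, was enriched 8.80-fold (193 ± 43.3 and 1695 ± 478 normalized counts). *Slc17a6*, the vesicular glutamate transporter of many excitatory neurons, had 606, 193 and 416 raw counts at E15 against 13, 63 and 3 in the adult. It was lowest at E15 in pool 2 and highest in the adult in pool 2, as the developing neuron markers were, and its log2 fold change was 3.19, or 4.81 without adult pool 2.

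In the list for GABA and glycine, 15 genes could be named, 4 higher at E15 and 8 in the adult. *Abat*, which encodes the transaminase that breaks down GABA, was 9.35-fold higher in the adult (162 ± 31.8 and 1516 ± 131 normalized counts), and *Slc6a11*, a GABA transporter gene known from astrocytes, 4.86-fold. *Slc6a11* had 7, 8 and 14 raw counts at E15 against 4, 65 and 16 in the adult, with adult pool 1 below the E15 pools, and its call was lost without adult pool 2 or any E15 pool (log2 fold changes -0.89 without adult pool 2 and -2.63 to -2.12 without an E15 pool, compared with -2.28). *Kctd8*, an auxiliary subunit gene of GABA-B receptors, had 47, 48 and 46 raw counts at E15 against 0 in each adult pool, at least 27.3-fold higher at E15 (17.8 to 27.7 with any single library left out). Another gene of that kind, *Kctd16*, had 18, 10 and 14 raw counts at E15 against 2, 0 and 0 in the adult, a ratio of 12.2 (exact 95% interval 3.17 to 104), and a bound of at least 5.53-fold without adult pool 1. The enzyme that makes GABA and the carrier that loads it into vesicles were scarce at both ages. *Gad1* had 26, 9 and 8 raw counts at E15 against 25, 59 and 18 in the adult, and its call in the adult (3.96-fold) was lost without E15 pool 2, E15 pool 3 or adult pool 2 (log2 fold changes -1.73, -1.70 and -1.41, compared with -1.99, and -2.77 without E15 pool 1). *Gad2* (6 raw counts in each E15 pool, and 1, 29 and 8 in the adult) and *Slc32a1* (21, 7 and 5 at E15 against 4, 55 and 7 in the adult) were not called. Without adult pool 2 the log2 fold change of *Gad2* was -0.42, compared with -1.80. That of *Slc32a1* changed sign without adult pool 2, to 0.17 from -1.72.

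In the acetylcholine list, 4 of the 8 named genes were higher at each age. *Bche*, which encodes butyrylcholinesterase, was 21.1-fold higher at E15, with log2 fold changes of 4.40 with all pools, 3.77 without adult pool 2 and 5.35 without adult pool 3. *Slc5a7*, the choline transporter gene, was 11.3-fold higher at E15 (299 ± 108 and 26.4 ± 3.19 normalized counts). In the adult, *Musk*, the kinase gene that organizes receptors at the muscle endplate, was enriched 36.8-fold, with 0, 3 and 3 raw counts at E15 against 57, 44 and 36 in the adult. *Lynx1*, whose product binds nicotinic receptors and damps them, was enriched 22.1-fold in the adult (12.1 ± 3.47 and 269.9 ± 18.9 normalized counts).

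The monoamine and histamine list had 7 named genes, of which 6 were higher in the adult. *Hnmt* and *Hdc*, which encode the enzymes that break down and make histamine, were enriched 19.9-fold and 5.04-fold in the adult. *Ddc*, which encodes the decarboxylase of dopamine and serotonin synthesis, was 4.04-fold higher at E15. In the list for nucleotides and adenosine, 6 of 13 genes were higher at each age. *Panx1*, whose product forms a channel that releases ATP, was 23.7-fold higher at E15 (334 ± 48.9 and 13.7 ± 11.8 normalized counts), with a log2 fold change of 4.57, or 5.53 without adult pool 2. *Slc29a2*, a nucleoside transporter gene, was 3.24-fold higher at E15. *Entpd2*, whose product hydrolyses ATP outside the cell, and *Slc28a3*, a nucleoside transporter gene, were enriched 16.4-fold and 10.2-fold in the adult. *Pomc*, the precursor gene of beta-endorphin, was the opioid precursor that could be named, and had 93, 350 and 291 raw counts at E15 against 18, 24 and 17 in the adult (7.14-fold higher at E15).

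Downstream of the receptors, 14 of 19 named genes for G proteins, cyclases, phospholipases and desensitization were higher at E15 and 3 in the adult. The largest changes at E15 were those of the adenylate cyclase genes *Adcy2* (21.8-fold, with 741 ± 109 and 33.8 ± 13.5 normalized counts) and *Adcy1* (12.1-fold). In the adult the largest were those of *Gnai1* (3.82-fold, with 567 ± 82.5 and 2168 ± 130 normalized counts), which encodes an alpha subunit of Gi, and *Plcb4* (2.91-fold), which encodes a phospholipase C of the Gq pathway.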

How the data were processed

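The authors mapped trimmed reads to the rat genome of Ensembl release 61 with Bowtie 0.12.7, dropped reads with more than 1 possible place, and used HTSeq 0.4.7p4 to count those on nuclear genes. The deposited raw counts were used without change. Genes with near-identical copies may be undercounted, and whether counting used strand is not given in the sources used here. A second deposited table lists the 10653 genes the authors called with an exact test of edgeR 2.4.0 and a common dispersion. Its log2 fold changes, log2 abundances and p-values, as deposited, were not used, only its names. The members and lists were chosen with earlier results of these data known.

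Libraries were grouped by age from the labels. All 29479 identifiers entered the table, and those with more than 10 counts over the 6 libraries were tested by edgeR 4.0.16 (estimateDisp, glmQLFit, glmQLFTest; R 4.3.3) with TMM factors of 1.32 to 1.33 at E15 and 0.735 to 0.773 in the adult, age as the only term and Benjamini-Hochberg adjustment over all genes tested. The biological coefficient of variation was 18.2% (common dispersion 0.0332). Normalized counts are counts scaled to the mean effective library of 19265016. An exact permutation test with 3 pools an age has a smallest two-sided p of 0.10, so p-values come from the fit across genes only. Sampling noise was exceeded between all pools of an age (chi-square per degree of freedom 5.40 to 56.4), and each was kept as a replicate. E15 pool 1 stood furthest apart, at 56.4 and 47.2 against E15 pools 2 and 3. The value was 5.40 between E15 pools 2 and 3, and 8.32 to 12.4 between adult pools. Without E15 pool 1, 6218 genes were called at E15 and 5449 in the adult, compared with 5773 and 4879 with all pools.

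At 0 counts at an age, the fold is a lower bound set against a total of 3 counts, and with 1 to 3 counts the ratio has an exact 95% binomial interval. Both cover counting error only. Counts in every library are given for the 5 largest changes in each direction, the gene with most counts in each family, genes at 0 at an age, genes not called and genes whose call is lost without 1 library, except that 3 members and 1 partner gene are not reported here by name. They stay in the fits and counts. From each list of partner genes, up to 2 of the largest called changes in each direction and the defining enzymes and transporters are named. A tally of whole families by reference name was planned and could not be made, since the reference tables used here pair no Ensembl identifiers with symbols. Gene order was taken from RefSeq (GRCr8), where all 52 genes were matched, and the sequence motifs were chosen after the values were seen.

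Alternatives were RLE, upper quartile and total-count scaling, totals that omit the 10 genes with most counts, no filter, filterByExpr, DESeq2 1.42.0, limma-voom (limma 3.58.1), the exact test of edgeR under 1 common dispersion, the replicate number as a block and each library left out. The fits were tested on simulated data. Tables and figures used Python 3.11.15, pandas 2.3.3, scipy 1.17.1 and matplotlib 3.10.9.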

Additional observations from a re-analysis of the deposited data

How the results depend on the processing

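Scaling by total counts alone moved the results most. It gave 9799 genes higher at E15 and 2292 higher in the adult over all genes tested (5773 and 4879 with TMM factors), 3 receptor genes and 21 partner genes higher in the adult (9 and 33 with TMM), and a median log2 fold change of 2.87 over the members. Totals without the 10 genes of highest mean count gave 8071 and 3196 genes, with a median over all genes of 0.60, and upper quartile factors a median of 0.26. The share of calls at E15 was 81.0%, 71.6% and 59.1% under these 3 scalings, compared with 54.2%. For the members, the exact test with a common dispersion called 38 at E15 and 14 in the adult, limma-voom 33 and 10, DESeq2 30 and 9, and filterByExpr, which tested 44 of them, 30 and 7. With single libraries left out, members called numbered 25 to 33 at E15 and 6 to 11 in the adult, and their median log2 fold change was 1.71 to 2.08. Same-numbered pools of the ages did not deviate together (correlations of -0.0384 to -0.0072 over genes), so the number does not pair them, and with it as a replicate block 29 members were called at E15 and 5 in the adult (*Chrm2*, *Gabrd*, *Gabrr2*, *Grin1* and *P2rx6*). Over the 42 members chosen to have their counts given in full, 575 recomputed values kept their direction and side of the threshold, 45 lost the call, 42 gained it and 0 reversed. The cause of these shifts was not tested. Depth limits the members with few counts at the lower age, where fold changes are bounds or wide intervals. The tally of families by reference name was not run.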
